A study of Mus musculus with 5 samples.

Results

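A set of 10 immediate early transcription factor genes (Fos, Fosb, Jun, Junb, Egr1, Egr2, Egr3, Ier2, Ier3 and Nr4a1) was followed across 5 arrays of endothelial and hepatoma cells. Members were found by gene name on the array, where they had 16 probes among 56605, and they are 10 of the 33003 genes named there once lincRNA probes were left out. All 10 members were well above background on at least 1 array, as were 27056 genes in all. On the 4 arrays of cells isolated from liver or tumor tissue every member gave a higher signal than in cultured hepatoma cells. The differences ran from 2.12 (Egr1) to 7.50 (Fos) on the log2 scale. On every tissue array 9 of the 10 members were at least 2-fold higher, as were 12.3% of the 27056 genes.

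The arrays held cells of 5 kinds with 1 array each, so no condition has a replicate. Liver sinusoidal endothelial cells (LSECs) came from mouse liver, and tumor endothelial cells (TECs) came from orthotopic liver tumors grown from HAK-1B, Hepa1-6 or KYN-2 cells. Of the 3 tumor lines, Hepa1-6 is of mouse origin and the others are human. The last array held Hepa1-6 cells from culture. The labels give the strain C57BL/6 for the LSEC and TEC samples and C57L for the cultured cells, and the methods describe female C57BL/6 and BALB/c nu/nu mice without saying which host gave which sample. Tumors were digested with collagenase II and CD31-positive cells were collected with anti-CD31 magnetic beads, and no drug treatment is stated for these samples. The array paragraph of the methods names Huh-7 in place of HAK-1B. The mice were bought at 6 weeks of age and animal experiments are stated to have used 5 or 6 mice per group, without saying how many gave the RNA of an array.

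Immediate early genes are transcribed within minutes of a stimulus, without the need for new protein synthesis. Growth factors, cytokines, shear stress and mechanical or enzymatic handling of tissue are all known to induce them, largely through MAP kinases acting on serum response factor and CREB at their promoters. Their products form the AP-1 dimers of Fos and Jun proteins, the EGR zinc finger factors and the orphan receptor Nr4a1, and they switch on later genes of growth, migration and inflammation.

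Promoter sequence is shown because every member measured higher on all 4 tissue arrays than on the cultured one, and the RefSeq promoter table (GRCm38.p6) held 7 of the 10 members (Fos, Fosb, Jun, Junb, Egr2, Ier3 and Nr4a1). The 250 bases before the annotated start are printed for the 4 members whose window held a motif other than TGACG alone, 5′ to 3′ on the strand of the gene, with every match to a searched motif in capitals. Fos lies on the plus strand of chr12:85473640-85473889, Nr4a1 on the plus strand of chr15:101266596-101266845, Fosb on the minus strand of chr7:19310046-19310295 and Egr2, which has 5 listed starts, on the plus strand of chr10:67537619-67537868.
Fos: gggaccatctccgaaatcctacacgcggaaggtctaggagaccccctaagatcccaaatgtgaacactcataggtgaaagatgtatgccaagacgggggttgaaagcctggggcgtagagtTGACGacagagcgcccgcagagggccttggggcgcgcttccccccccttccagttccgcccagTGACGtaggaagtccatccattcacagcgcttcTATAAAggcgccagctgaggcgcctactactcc
Nr4a1: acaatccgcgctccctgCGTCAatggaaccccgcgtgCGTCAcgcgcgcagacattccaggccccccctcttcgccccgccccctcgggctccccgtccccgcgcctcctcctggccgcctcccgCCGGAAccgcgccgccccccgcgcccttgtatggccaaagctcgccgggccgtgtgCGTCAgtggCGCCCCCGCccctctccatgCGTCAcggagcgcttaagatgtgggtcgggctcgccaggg
Fosb: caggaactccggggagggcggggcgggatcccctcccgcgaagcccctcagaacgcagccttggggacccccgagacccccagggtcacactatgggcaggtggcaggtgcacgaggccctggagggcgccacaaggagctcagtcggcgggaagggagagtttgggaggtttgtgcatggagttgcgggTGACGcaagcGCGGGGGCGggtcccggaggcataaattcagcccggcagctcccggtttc
Egr2: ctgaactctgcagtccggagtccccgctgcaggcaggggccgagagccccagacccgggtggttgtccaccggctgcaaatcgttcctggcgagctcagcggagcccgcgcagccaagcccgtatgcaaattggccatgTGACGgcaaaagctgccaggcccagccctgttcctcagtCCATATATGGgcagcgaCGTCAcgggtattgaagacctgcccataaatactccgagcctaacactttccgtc

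The motifs were searched on both strands. The printed Egr2 window held a CArG box, the site bound by serum response factor, 72 bases before the start. Of the 27025 genes in the table, 1.62% had one in a window of this length. The Egr2 window beginning at chr10:67535249 held no searched motif. The Fos window held TATAAA, the core promoter element, 33 bases before the start, and 14.3% of genes had it anywhere in a window. GCGTGGGCG or GCGGGGGCG, the sites of EGR factors, was found in the Fosb and Nr4a1 windows and for 3.47% of genes. CCGGAA, an ETS core, was found in the Nr4a1 window and in another Egr2 window, and for 13.6% of genes. No member window held TGACGTCA, the CREB site (1.77% of genes), or TGACTCA, an AP-1 site (5.16%). TGACG, the shorter core within TGACGTCA, was added after the sequences had been seen. It lay in the windows of 5 of the 7 members, Fos, Fosb, Junb, Egr2 and Nr4a1, the last with 4 copies, and in those of 19.8% of genes. These matches describe the letters in a window only.

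Across the arrays, between 44.6% (cultured cells) and 78.1% (Hepa1-6 TEC) of probes were well above background. The 9 pan-endothelial markers were all well above background on the 4 tissue arrays, where Cdh5 measured 11.93 to 14.16 log2 units, and 2 of 9 were on the cultured array, where Cdh5 was not well above background at 2.89. The 7 macrophage markers were also well above background on all tissue arrays, with a summed log2 signal of 18.57 to 19.47 against 10.66 in cultured cells, where 3 of 7 were. At least 2-fold above the cultured array on every tissue array were 9 of 9 endothelial and 6 of 7 LSEC markers. So were 7 of 7 macrophage, 6 of 9 neutrophil, 2 of 5 T and NK cell and 3 of 3 B cell markers. Of 7 hepatocyte markers 2 passed, of 6 stellate cell and fibroblast markers 2, of Hepa1-6 and housekeeping genes none, and of all genes 12.3%. Only 1 neutrophil and 1 stellate cell and fibroblast marker were at least 2-fold lower on every tissue array. In cultured cells 7 endothelial, 5 LSEC and 4 macrophage markers were not well above background. Nor were 8 neutrophil, 5 hepatocyte, 4 stellate cell and fibroblast, 4 T and NK cell and 3 B cell markers. Those differences are bounds only. On the Hepa1-6 TEC array the hepatoma marker Afp reached 15.38 log2 units, near the 15.92 of the cultured cells, whereas it measured 6.21 to 8.06 on the other tissue arrays. Gpc3, of the same list, measured 10.13 in Hepa1-6 TECs, 9.52 in cultured cells and 5.60 to 7.51 on the other tissue arrays. H19, also listed, differed from both. It measured 8.73 in Hepa1-6 TECs and 9.71 in KYN-2 TECs, and was not well above background in cultured cells. The LSEC array, the 3 TEC arrays and the cultured cell array were on slides 1, 2 and 3. Tissue and cultured cells therefore differed in cell type, isolation, slide and labelled strain at the same time, and these cannot be told apart. In such bulk RNA fewer cells of a type and less RNA per cell cannot be told apart either.

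The first comparison asked how the members differed between CD31-positive cells from tissue and cultured cells. Levels are log2 signals after quantile normalization over the 5 arrays, with the brightest probe standing for a gene, and are compared between arrays only. A gene was called higher when limma, fitted to the 4 tissue arrays against the cultured array, gave a Benjamini-Hochberg adjusted p below 0.05 with a ratio of at least 1.5. The fit has 3 residual degrees of freedom and its spread is that between 4 different tissue conditions. By this rule 8 of the 10 members were called higher and none lower, beside 3.85% of the 27056 genes (1042 higher and 572 lower). Egr3 is among the 8 but passed the filter through the tissue arrays alone, and 6 members were called when signal well above background was required on every array. The median member difference was 4.68 on the log2 scale, or 4.24 with the 1 member that was not well above background in cultured cells set at its bound, and the median over all genes was 0.01. An exact permutation test of 4 arrays against 1 cannot give a p below 0.2.

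**Figure D1:**
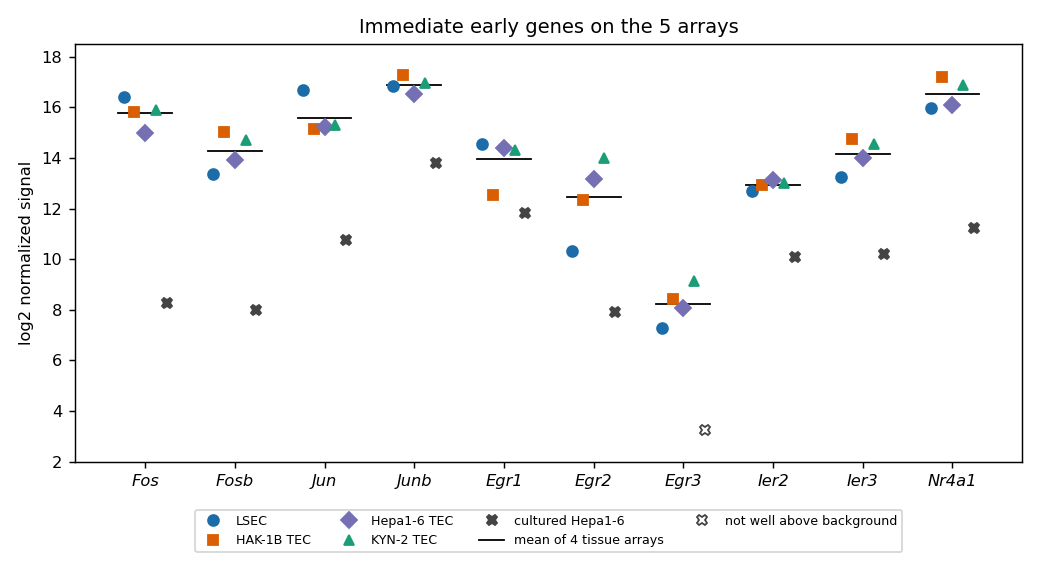
Log2 normalized signal (y axis) of the 10 members (x axis) on the 5 arrays, with 1 symbol per array and a line at the mean of the 4 tissue arrays. The cultured Hepa1-6 array lies below all tissue arrays for every member, by 0.70 for Egr1 in HAK-1B TECs and by 6.71 or more for Fos, and the open symbol marks the value of Egr3 that was not well above background.

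Among the AP-1 subunits, all 4 members were called higher. Fos, the partner of Jun proteins in the classic AP-1 dimer, was read by a probe at chr12:86818118-86818177 (mm9, plus strand). It measured 16.40 in LSECs, 15.83 in HAK-1B TECs, 14.98 in Hepa1-6 TECs, 15.88 in KYN-2 TECs and 8.27 in cultured cells. On the scanner scale before normalization these were 66812, 59203, 35517, 40691 and 377 intensity units. The tissue arrays spanned 1.42 and none overlapped with the cultured array. Fos was 181-fold higher in tissue (log2 difference 7.50 ± 0.66 SE, limma adjusted p = 0.00674), and at least 105-fold on each tissue array. Of the 27056 genes, 1.44% had a larger difference in the same direction.

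Fosb, a second Fos family subunit, has its main probe at chr7:19888168-19888227 (mm9, minus strand). Its levels were 13.38 in LSECs, 15.01 in HAK-1B TECs, 13.91 in Hepa1-6 TECs, 14.72 in KYN-2 TECs and 7.98 in cultured cells. The LSEC array was the lowest of the tissue arrays and was still 42.1-fold above the cultured array. The mean was 77.3-fold higher in tissue (6.27 ± 0.76 SE, limma adjusted p = 0.0140). A second Fosb probe at chr7:19890146-19890205 ran parallel to it at a lower level, 8.23 ± 0.54 (SD, n = 4) in tissue, and was not well above background in cultured cells.

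Jun, the founding partner of Fos, was read at chr4:94716928-94716987 (mm9, minus strand). The signal was 16.68 in LSECs, 15.16 in HAK-1B TECs, 15.22 in Hepa1-6 TECs, 15.32 in KYN-2 TECs and 10.77 in cultured cells. LSECs stood above the 3 TECs, which lay close together, and all 4 were clear of the cultured cells. The tissue mean was 28.3-fold higher (4.82 ± 0.75 SE, limma adjusted p = 0.0272).

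Junb, an AP-1 subunit that often restrains Jun, has its main probe at chr8:87500843-87500902 (mm9, minus strand). It read 16.85 in LSECs, 17.29 in HAK-1B TECs, 16.51 in Hepa1-6 TECs, 16.94 in KYN-2 TECs and 13.79 in cultured cells. The 4 tissue arrays spanned 0.78 and lay apart from the cultured array, on which Junb was well above background too. Tissue was 8.62-fold higher (3.11 ± 0.50 SE, limma adjusted p = 0.0308). A second Junb probe at chr8:87501881-87501940 differed by 2.43, and another, placed 4149 bases downstream of the main probe, was not well above background on any array.

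The EGR zinc finger factors bind GC-rich sites, and of the 3 members Egr3 alone was called. Egr1, the factor of this family most widely used as a marker of recent stimulation, measured 14.55 in LSECs, 12.52 in HAK-1B TECs, 14.39 in Hepa1-6 TECs, 14.32 in KYN-2 TECs and 11.83 in cultured cells. Cultured cells held the member well above background, and the HAK-1B TEC array came within 0.70 of them, a 1.62-fold difference. The mean difference was 2.12 ± 0.91 (SE), 4.34-fold, and did not pass the test (limma adjusted p = 0.254).

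Egr2, known for its part in myelination and in myeloid and lymphoid cells, was read at chr10:67004758-67004817 (mm9, plus strand). Its levels were 10.34 in LSECs, 12.34 in HAK-1B TECs, 13.16 in Hepa1-6 TECs, 14.00 in KYN-2 TECs and 7.91 in cultured cells. No other member spread as widely over the tissue arrays, with a range of 3.66 against 0.43 to 2.03. The mean was 23.4-fold above cultured cells and each tissue array was at least 5.38-fold above them, but the difference of 4.55 ± 1.39 (SE) did not pass (limma adjusted p = 0.146). Missing the threshold does not show that Egr1 or Egr2 had equal levels in tissue and cultured cells.

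Egr3, a target of calcium and antigen receptor signals, was read at chr14:70482361-70482420 (mm9, plus strand). It measured 7.28 in LSECs, 8.43 in HAK-1B TECs, 8.06 in Hepa1-6 TECs and 9.14 in KYN-2 TECs. In cultured cells it was not well above background, with a reading of 3.25. Its signal passed the filter through the tissue arrays alone. Tissue was at least 4.81-fold higher when the cultured value was set to 5.96, the lowest signal well above background on that array (limma adjusted p = 0.0283 on the measured values). A second Egr3 probe at chr14:70481979-70482038 gave 6.27 ± 0.88 (SD, n = 4) in tissue and was not well above background in cultured cells, and another at chr14:70478827-70478886 was not well above background on any array.

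Of the 3 remaining members, all were called higher. Nr4a1, the orphan nuclear receptor also known as Nur77, was read at chr15:101105071-101105130 (mm9, plus strand). It gave 15.99 in LSECs, 17.20 in HAK-1B TECs, 16.09 in Hepa1-6 TECs, 16.89 in KYN-2 TECs and 11.22 in cultured cells. LSECs and Hepa1-6 TECs were nearly level, and the other 2 TECs were higher. The mean was 39.9-fold higher in tissue (5.32 ± 0.66 SE, limma adjusted p = 0.0148).

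Ier3, an immediate early regulator of cell survival, was read at chr17:35959528-35959587 (mm9, plus strand). The array values were 13.26 in LSECs, 14.74 in HAK-1B TECs, 13.98 in Hepa1-6 TECs, 14.57 in KYN-2 TECs and 10.21 in cultured cells. The order of the tissue arrays was that of Fosb. Tissue was 15.2-fold higher (3.92 ± 0.71 SE, limma adjusted p = 0.0422).

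Ier2, a nuclear protein induced in the same wave, was read at chr8:87185211-87185245 (mm9, minus strand). Its signal was 12.71 in LSECs, 12.91 in HAK-1B TECs, 13.14 in Hepa1-6 TECs, 13.02 in KYN-2 TECs and 10.09 in cultured cells. The SD over the 4 tissue arrays was 0.18, the smallest of the 10. Tissue was 7.23-fold higher (2.85 ± 0.45 SE, limma adjusted p = 0.0292). A second Ier2 probe at chr8:87183623-87183681 gave 8.24 ± 0.33 (SD, n = 4) in tissue and was not well above background in cultured cells.

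**Figure D2:**
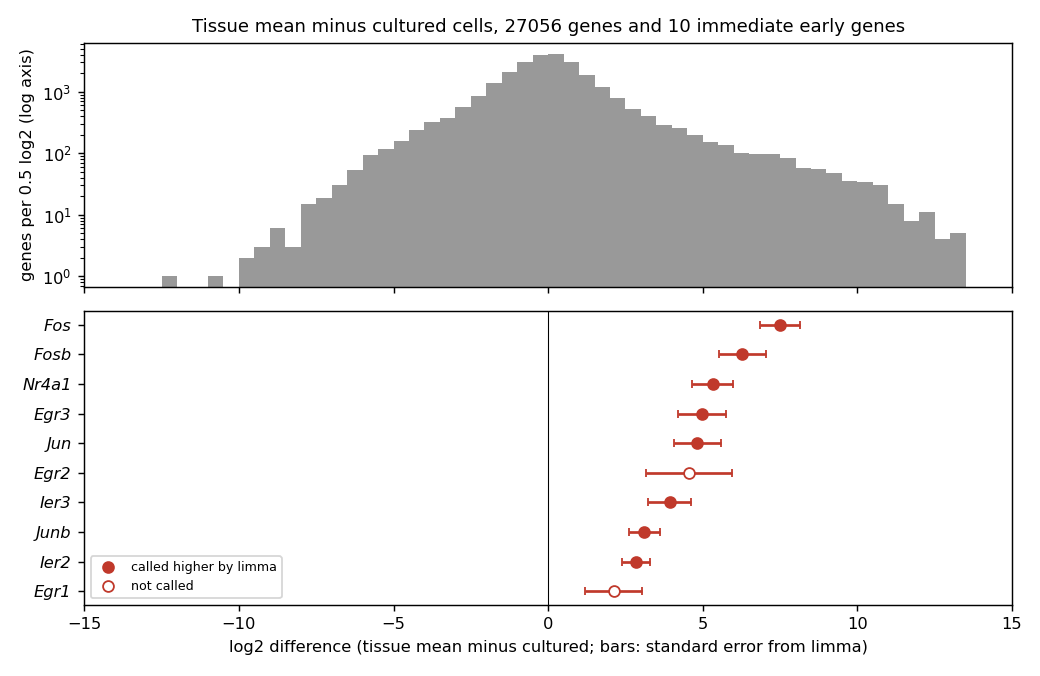
Tissue mean minus cultured cells on the log2 scale (x axis). Above, all 27056 genes are counted per bin of 0.5 on a log axis, and below, each of the 10 members is a point with its standard error from limma, filled where called higher. All members lie right of 0, from 2.12 for Egr1 to 7.50 for Fos, with Egr1 and Egr2 not called.

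The limma calls rested on few arrays. Without the KYN-2 TEC array only Fos was called among the members, beside 302 genes in all (1.12% of 26955), and without the HAK-1B TEC array 3 were, Fos, Fosb and Nr4a1 (551 genes, 2.06% of 26797). Without the LSEC array 6 were called (960 genes, 3.58% of 26822), and without the Hepa1-6 TEC array, which carried the hepatoma marker, 7 were, all but Ier3 (1499 genes, 6.91% of 21705). The differences themselves moved little, with a median over the members of 4.35 without KYN-2 TECs, 4.75 without HAK-1B TECs, 4.86 without LSECs and 4.63 without Hepa1-6 TECs. With 75th percentile scaling 5 members were called (Fos, Fosb, Jun, Egr3 and Nr4a1) and the split over all genes was 827 higher to 253 lower, with the median of all genes at -0.18. With normexp background correction 7 members were called and the split was 733 to 788. Over the 12 limma alternatives, Fos was called in 12, Fosb and Nr4a1 in 11, Jun in 10, Ier2 in 8, Junb, Egr3 and Ier3 in 7, and Egr1 and Egr2 in none.

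Simpler rules of size were applied beside the test. A signal at least 2-fold above the cultured array on every tissue array was found for 9 of the 10 members, all but Egr1, and for 12.3% of the genes. The rule of the methods asks for a ratio of at least 1.5 and a Z-score of at least 2 in a pair of arrays, which came to 66.7-fold for LSECs, 54.2-fold for HAK-1B TECs, 27.5-fold for Hepa1-6 TECs and 50.1-fold for KYN-2 TECs against cultured cells. Fos passed it in all 4 pairs. It was the only member to pass in LSECs (4.17% of genes passed), while Fos, Fosb and Nr4a1 passed in HAK-1B TECs (4.19%). Egr2 and Egr3 joined these 3 in Hepa1-6 TECs (4.23%) and in KYN-2 TECs (4.27%). Egr3 did so on its cultured reading of 3.25, which was not well above background. With that reading set at its bound, its tissue mean was at least 4.81-fold higher. The 4 pairs share the cultured array. Between 2 tissue arrays the members differed by a root mean square of 0.67 to 1.53, against 0.94 to 1.79 over all genes. Between a tissue array and the cultured array the members differed by 4.56 to 5.21 and all genes by 2.23 to 2.57.

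The rest of the immediate early class was less uniform. Of 48 other immediate early genes, 10 were called higher (Jund, Klf2, Klf4, Dusp1, Zfp36, Rhob, Nfkbiz, Nfkbia, Socs3 and Gem) and none lower, with a median difference of 2.33, or 2.15 with genes at their bounds. Zfp36, which binds AU-rich mRNA and limits cytokine output, measured 15.04 in LSECs, 15.85 in HAK-1B TECs, 15.06 in Hepa1-6 TECs, 15.50 in KYN-2 TECs and 8.92 in cultured cells. It was 87.2-fold higher in tissue (limma adjusted p = 0.00623). Gem, a small GTP-binding protein, was not well above background in cultured cells and passed the filter through the tissue arrays alone. Tissue was at least 9.62-fold higher for Gem (limma adjusted p = 0.0315 on the measured values). Fosl1, a Fos family member tied to cell growth, went the other way by values, with 3.19, 6.50, 6.94 and 6.69 in tissue and 11.29 in cultured cells, and it was not called (limma adjusted p = 0.128).

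Of the upstream factors and partners, 22 of 23 were on the array under the name listed. The median difference was 0.70, and 3 were called higher, which were Batf, Batf2 and Batf3. These leucine zipper partners of Jun proteins are known from lymphoid and dendritic cells. None of the 3 was well above background in cultured cells, and tissue was at least 33.9-fold, 17.1-fold and 17.7-fold higher. Without KYN-2 TECs 1 of them was called (Batf), without HAK-1B TECs 2, and none with signal required on every array. Srf, which binds the CArG box, differed by 0.71 and was not called, and neither was Elk1 (-0.04) nor Creb1 (0.39). These 3 were chosen for their role after their values had been seen. Of the 22, 5 were at least 2-fold higher on every tissue array than on the cultured array, and none was 2-fold lower. Crem (2.81) and Jdp2 (2.72) were among these, both well above background on all 5 arrays. They too are named after their values were seen.

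Heat shock genes are a further class induced by stress, and 3 of 12 were called higher, Hspa1a, Hspa1b and Hspb1. By size, 3 of the 12 were at least 2-fold higher on every tissue array than on the cultured array. Another 2 were at least 2-fold lower on every tissue array, and they were not called. Hspa1a, the inducible Hsp70, measured 16.75 in LSECs, 14.59 in HAK-1B TECs, 13.00 in Hepa1-6 TECs and 14.03 in KYN-2 TECs, and was not well above background in cultured cells. Tissue was at least 398-fold higher for Hspa1a, 131-fold for Hspa1b and 78.8-fold for Hspb1 (limma adjusted p = 0.0145, 0.0482 and 0.0301 on the measured values). All 3 passed the filter through the tissue arrays alone, so these p-values rest on readings in cultured cells that are not well above background. None of the 12 was called without HAK-1B TECs, without KYN-2 TECs or with signal required on every array, and with normexp 1 was. The median of the 12 was 0.07, and the constitutive Hspa8, named after its value was seen, differed by 0.32 and was not called. The macrophage and endothelial markers and these heat shock genes were high on the same 4 arrays as the members, and their part in the members' levels was not tested.

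**Figure D3:**
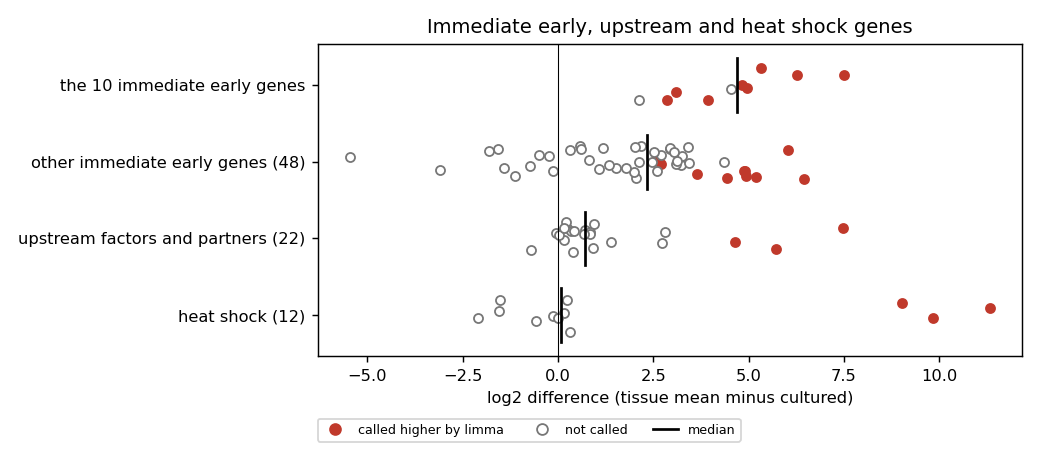
Tissue mean minus cultured cells on the log2 scale (x axis) for the 10 members, 48 other immediate early genes, 22 upstream factors and partners and 12 heat shock genes, 1 point per gene on the measured values, filled where limma called it higher, with a bar at each median. The medians are 4.68, 2.33, 0.70 and 0.07, and the 3 high heat shock points are measured against cultured values that were not well above background.

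The second comparison asked how the members differed between TECs and LSECs. With 1 array per condition and the TECs on a slide of their own, a ratio has no replicate check, tumor and slide cannot be told apart, and the 3 ratios share the LSEC array. The members did not move as a block. Egr2 was higher in all 3 TECs than in LSECs, by 12.6-fold in KYN-2, 7.05-fold in Hepa1-6 and 3.99-fold in HAK-1B TECs. It was the 1 member at least 2-fold above LSECs in all 3 TECs, as were 5.54% of 26802 genes. Jun was lower in all 3, by 2.57-fold in KYN-2, 2.76-fold in Hepa1-6 and 2.87-fold in HAK-1B TECs. It was the 1 member at least 2-fold below LSECs in all 3, as were 8.25% of genes.

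Fosb was 3.11-fold above LSECs in HAK-1B TECs, 2.54-fold in KYN-2 TECs and 1.44-fold in Hepa1-6 TECs. Ier3 was 2.79-fold, 2.48-fold and 1.64-fold above them in the same order. Both thus measured higher in the TECs of the human lines than in those of the mouse line, which has 1 array. So did Fos, Junb, Egr3 and Nr4a1, while Jun, Egr1, Egr2 and Ier2 did not. The share of all genes with this order was not counted, so it is not read as a trait of the members. The Hepa1-6 TEC array is also the one with Afp at 15.38, and its part in this order was not tested. Egr3 was 2.21-fold, 3.63-fold and 1.72-fold above LSECs by its main probe. The second Egr3 probe was lower in Hepa1-6 TECs (5.15) than in LSECs (6.06). It was higher in HAK-1B (6.71) and KYN-2 TECs (7.17). Nr4a1 ranged from 1.07-fold in Hepa1-6 to 2.33-fold in HAK-1B TECs, and Ier2 from 1.15-fold to 1.35-fold, although with the mean of both Ier2 probes 2 of its 3 ratios were below 0 (-0.24 in HAK-1B and -0.07 in KYN-2 TECs). Fos had log2 ratios of -0.57, -0.52 and -1.42, but with 75th percentile scaling the KYN-2 ratio was 0.16. Egr1 was 4.08-fold lower in HAK-1B TECs but within 1.17-fold of LSECs in the other 2, where 75th percentile scaling turned the ratios to 0.11 and 0.24. By its main probe Junb lay on both sides of LSECs, from -0.34 in Hepa1-6 to 0.44 in HAK-1B TECs. The second Junb probe stood further above LSECs (10.61) in HAK-1B (11.98) and KYN-2 TECs (11.95). In Hepa1-6 TECs that probe measured 10.46.

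**Figure D4:**
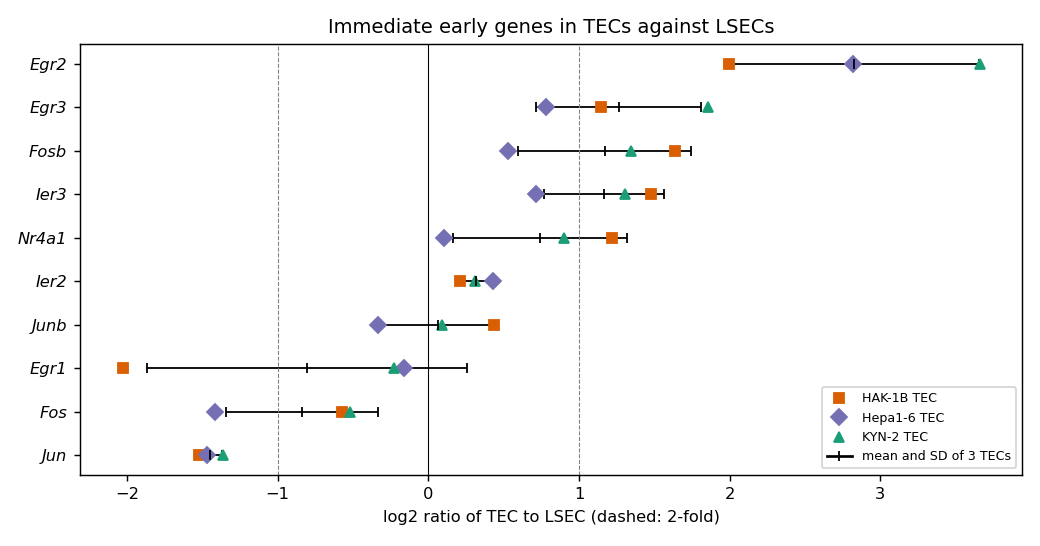
Log2 ratio of each TEC array to the LSEC array (x axis) for the 10 members, with 1 symbol per tumor line, a black bar for the mean and SD of the 3 TECs and dashed lines at 2-fold. Egr2 lies beyond the right dashed line for all 3 TECs and Jun beyond the left one, while Egr1 is low in HAK-1B TECs alone.

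By limma over the 3 TECs against LSEC no gene of 26802 passed an adjusted p of 0.05. The smallest adjusted p was 0.410, and 2442 genes had an unadjusted p below 0.05. Among the members Egr2 differed by 2.82 ± 0.80 SE (limma unadjusted p = 0.0240, adjusted p = 0.483). Jun differed by -1.45 ± 0.45 SE (limma unadjusted p = 0.0305, adjusted p = 0.504). The rule of the methods asked for 7.65-fold in HAK-1B TECs, 13.8-fold in Hepa1-6 TECs and 7.18-fold in KYN-2 TECs. No member passed it in HAK-1B (2.91% of genes) or Hepa1-6 TECs (3.7%), and Egr2 passed it in KYN-2 TECs (3.31%). Markers of other cells moved between the same arrays. Of 9 neutrophil markers, 9 were at least 2-fold higher in HAK-1B TECs than in LSECs, 9 in Hepa1-6 TECs and 5 in KYN-2 TECs, with summed log2 signals of 17.26, 15.18 and 12.65 against 11.10. Of the 9 endothelial markers 8, 9 and 6 were at least 2-fold lower in the same order, and of the 12 heat shock genes 7, 6 and 8 were. Over all genes 17.4%, 25.1% and 16.8% were at least 2-fold higher, and 18%, 22% and 18.3% lower. Of the 7 macrophage markers 1, 2 and 2 were lower and 0, 0 and 1 higher. Of the 7 LSEC markers 6 were lower in each TEC, and 1 was higher in KYN-2 TECs. Of the 6 stellate cell and fibroblast markers 3, 4 and 5 were higher and none lower. The part of these markers and heat shock genes in the ratios of the members was not tested.

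The genes outside the set whose pattern came closest to the mean profile of the 10 members were Mcoln2, Chchd5, Tro, Arrdc3 and Cd200r1. Likeness was the root mean square difference between log2 profiles over the 5 arrays, each centred on its own mean, and 16962 genes well above background on all tissue arrays were compared. The difference was 0.15 for Mcoln2, a lysosomal channel, and 0.19 for Cd200r1, an inhibitory receptor of myeloid cells. The centred mean profile of the members read 0.57 in LSECs, 0.97 in HAK-1B TECs, 0.77 in Hepa1-6 TECs, 1.31 in KYN-2 TECs and -3.64 in cultured cells. Of these 5 genes, 4 were not well above background in cultured cells. Among the members themselves Egr3 lay nearest to the mean profile at 0.40 and Fos farthest at 1.30.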

How the data were processed

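RNA was amplified, labelled with Cy3 and hybridized to a 60-mer Agilent mouse array, with 1 array per condition. The authors deposited spot intensity on a linear scale from Agilent Feature Extraction (9.5.1.1 in the labels, 10.7.1.1 in the file headers) and a table of quantile-normalized intensity, used as an alternative. The methods quantile normalized a pair of samples at a time and used the software's flags for detection.

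Here spots of a probe were averaged without controls (56605 probes), and log2 of the deposited processed signal intensity was put through quantile normalization over all 5 arrays. lincRNA probes were left out, a gene took the probe with the highest mean, and genes called well above background by the scanner software on at least 1 array were kept. A value that was not well above background gives only a bound, set at the lowest signal among probes well above background on that array. Tests used limma 3.58.1 in R 4.3.3 and were tested on simulated data. Python 3.11.15 with numpy 2.4.6, pandas 2.3.3 and matplotlib 3.10.9 served for the rest. The number of arrays limits the precision, and p-values measure the spread between tissue conditions, not between animals.

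The members, gene lists and tests were chosen with earlier results of these data known. All 10 members are named with every probe. Of other immediate early genes, partners and heat shock genes those with the largest differences are named, as are the 5 genes closest to the mean member profile, and the text says where another was named after its value was seen. Further lists held markers of endothelial cells and LSECs, hepatocytes and Hepa1-6 cells, macrophages, neutrophils, lymphocytes, and stromal cells, with housekeeping genes. Probe positions are those of the files (mm9). No annotation of that build was used here, so exon and UTR are not given. Alternatives were 75th percentile scaling, normexp with an offset of 50, the deposited table, the mean of all probes, other filters, normalization by pairs, a slide block, an intensity trend, other folds and leaving out each tissue array.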

Additional observations from a re-analysis of the deposited data

Results flagged for a closer look

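With 4 tissue arrays per member, the gap of the highest or lowest array to its nearest neighbour was set against the whole range. Chance alone passes the critical value of the Dixon test in about 1 in 20 such groups, and 10 members were examined. Jun stood apart in LSECs, where it was the highest with a gap of 0.896 of the range (16.68 against 15.16 to 15.32 in the 3 TECs). Egr1 stood apart in HAK-1B TECs, where it was the lowest with a gap of 0.887 of the range (12.52 against 14.32 to 14.55). By its main probe the ratio of Junb to LSECs was -0.34 in Hepa1-6 TECs and 0.44 in HAK-1B TECs. These are opposite directions on 1 array each, and this difference was not tested.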

How the results depend on the processing

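No paired analysis was possible because 1 array stands for each condition. Every member stayed higher in tissue than in cultured cells under the alternatives run. Of 150 ratios to LSECs over the alternatives, 5 changed sign, namely Fos in KYN-2 (0.16) and Egr1 in Hepa1-6 (0.11) and KYN-2 TECs (0.24) with 75th percentile scaling, and Ier2 in HAK-1B (-0.24) and KYN-2 TECs (-0.07) with the mean of all probes. Over all genes, normexp turned the split from 1042 higher and 572 lower to 733 and 788. The median member difference of 4.68 became 4.07 with normexp and 4.24 with the mean of all probes. Members called by limma (8) numbered 5 with 75th percentile scaling and ranged from 1 (without KYN-2 TECs) to 7 (without Hepa1-6 TECs) when a tissue array was left out, with 3 without HAK-1B TECs. All genes called higher (1042) ranged from 302 (without KYN-2 TECs) to 1499 (without Hepa1-6 TECs), and 139 were called under a filter for signal on every array, where fewer genes were tested. The other immediate early genes called (10) numbered 6 with 75th percentile scaling, 6 with that filter, and 1 (without HAK-1B TECs or without KYN-2 TECs, Zfp36 in both) to 12 with an array left out. Genes 2-fold higher on every tissue array (3325) numbered 2117 with normexp, 1089 with that filter and 1953 at a fold of 4. The KYN-2 median ratio to LSECs (0.61) was 1.098 with 75th percentile scaling. By the rule of the methods, member calls summed over the 4 pairs against cultured cells (14) were 23 with normexp and 27 with that filter, and calls over all genes (3655) were 1785 with that filter. Against LSECs the 1 member call became 2 with normexp and 2 with that filter. The causes were not tested. Slide as a random block gave 8 member calls. The cultured array was alone on its slide, so this setting cannot separate slide from the difference between tissue and cultured cells. Chosen after the data were seen, scaling to housekeeping genes gave member differences of 2.34 to 7.72, and Hepa1-6 TECs alone against cultured cells gave 2.56 to 6.71.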
